A study of Mus musculus with 12 samples.

Results

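The liver transcriptome of Clk/Clk mutant mice was compared with that of wild-type mice while both were fed bezafibrate, a fibrate drug that activates the nuclear receptor PPARα. The comparison took the 3 arrays of bezafibrate-fed Clk/Clk mice and the 3 arrays of bezafibrate-fed wild-type mice, 6 of the 12 arrays of the series. All mice were males aged 6 to 12 weeks kept under 12 h of light and 12 h of darkness, and livers were taken at Zeitgeber time 14, early in the night. Treated mice ate chow with bezafibrate at 0.5% of its weight over 5 days. Clk/Clk and wild-type mice were on the Jcl:ICR background. The remaining arrays were used for reference: 3 PPARα-null mice fed bezafibrate, from a 129S4SvJae-PPARalphatm1Gonz/J line crossed with Jcl:ICR, and 3 wild-type mice (Jcl:ICR) fed the diet without the drug.

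Both genotypes of the comparison received the drug, and no untreated Clk/Clk mouse was measured. A difference between the genotypes at any time and a difference in their response to bezafibrate therefore cannot be told apart. The whole liver was sampled, so fewer cells of a type and less RNA per cell cannot be told apart either. The labels list the mice as 3 per group and give no litter, cage or array batch.

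CLOCK and its partner BMAL1 (gene Arntl) form a transcription factor that binds E-box elements and switches on the Period, cryptochrome and REV-ERB genes, whose proteins then repress CLOCK and BMAL1 activity or Arntl itself. The Clk allele gives a CLOCK protein that still binds DNA with BMAL1 but activates transcription poorly. In liver the same factor drives a second tier of regulators, the PAR bZIP proteins DBP, TEF and HLF, which bind D-box elements in genes of lipid and drug metabolism. PPARα, the receptor that bezafibrate activates, switches on fatty acid uptake and oxidation, and the study asked which of its target genes depend on CLOCK.

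The deposited values ran from 2.25 to 15 on the log2 scale, with array medians of 5.45 to 5.50. Arrays correlated at 0.993 to 0.996 within a group and at 0.982 to 0.990 between Clk/Clk and treated wild type. Treated wild-type mouse 3 lay nearest to the Clk/Clk arrays, with a mean correlation of 0.989 against 0.985 and 0.983 for mice 1 and 2. For 13598 tested genes, a call required a difference of at least 1.5-fold and a p under 0.05 after Benjamini-Hochberg adjustment. At this rule 1241 genes (9.13%) differed between Clk/Clk and wild type on bezafibrate, 359 higher in Clk/Clk mice (2.64%) and 882 lower (6.49%). Differences of at least 4-fold were called in 15 genes higher and 81 lower. The 3 and 3 values did not overlap in 42.3% of all genes, 21.2% with the Clk/Clk mice higher and 21.1% with them lower. Of the called genes, 354 of the 359 higher and 858 of the 882 lower did not overlap. A lack of overlap therefore adds little to a call, and the largest rises and falls named below were picked for it. The median difference of all genes was 0.02.

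**Figure D1:**
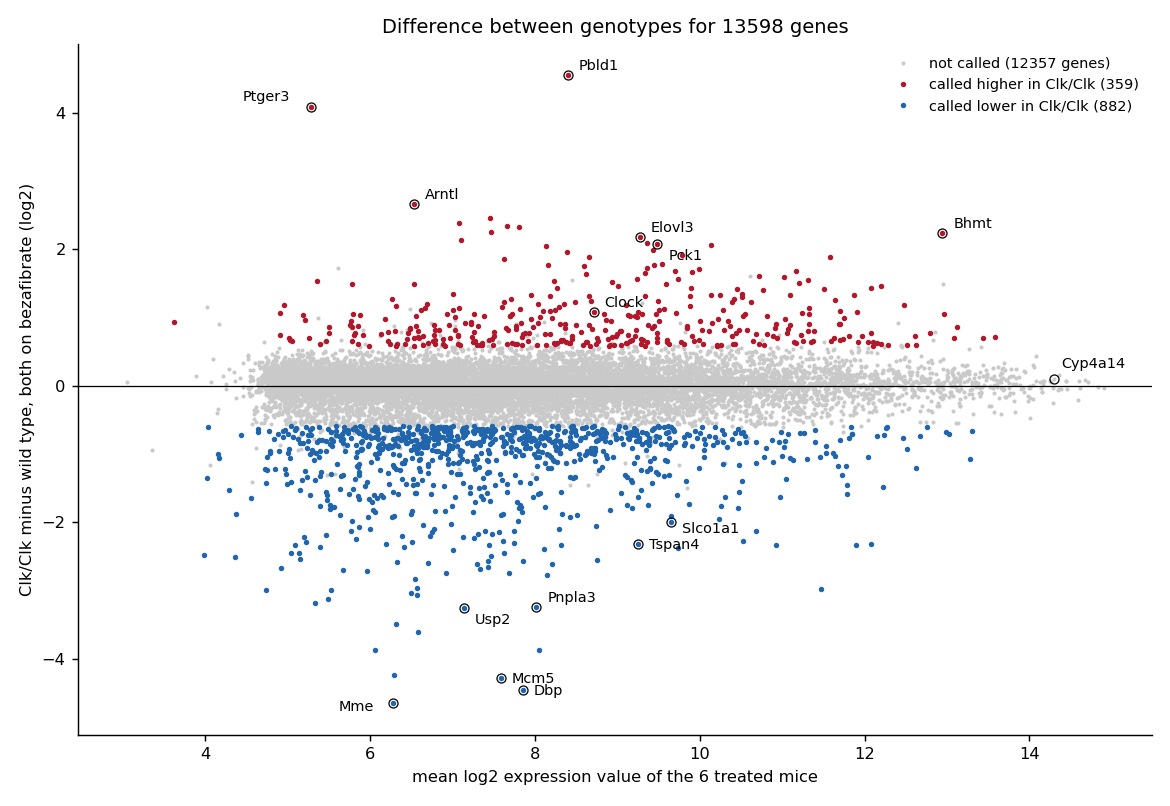
Difference between Clk/Clk and wild-type mice on bezafibrate (log2, vertical axis) against the mean log2 expression value of the 6 mice, 1 point per gene. Red points are the 359 genes called higher in Clk/Clk mice and blue points the 882 called lower; circles mark named genes, with Mme and Dbp among the lowest and Pbld1 and Ptger3 the highest.

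Clock and Arntl, the core activator pair, were higher in Clk/Clk livers, and the REV-ERB repressor gene Nr1d2 was lower. They were the 3 genes called among 8 tested in the activating limb, 2 higher and 1 lower, where 2.64% and 6.49% of all genes were called. Clock itself read 9.37, 9.32 and 9.07 in the 3 Clk/Clk mice and 7.99, 8.02 and 8.49 in the 3 treated wild-type mice. All Clk/Clk values lay above all treated wild-type values, a difference of 1.08 (SE 0.159, adjusted p = 0.000826), or 2.12-fold. Of the 4 Clock probe sets, 3 were called higher, where 5.67% of all 45037 probe sets were called, 1.69% higher and 3.98% lower, and the dimmest differed by 0.065 (adjusted p over all probe sets = 0.81). The position of the probe sets in the gene was not known here, so these values do not check the Clk mutation.

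Arntl, which encodes BMAL1, read 7.94, 8.32 and 7.33 in Clk/Clk mice and 5.32, 4.91 and 5.39 in treated wild type. The groups were far apart, and the Clk/Clk mice were 6.31-fold higher, a difference of 2.66 (SE 0.200, adjusted p = 2.11e-05). That value came from the brighter of 2 Arntl probe sets. The other differed by 0.36 (adjusted p over all probe sets = 0.0164), under the 1.5-fold limit. Against PPARα-null mice on the drug the brighter probe set was higher by 1.94 (SE 0.200, adjusted p = 1.93e-05).

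Nr1d2, the REV-ERBβ repressor of Arntl, read 9.09, 9.81 and 10.01 in Clk/Clk and 10.50, 10.77 and 10.21 in treated wild type. It was lower in Clk/Clk mice without overlap, with a difference of -0.85 (SE 0.205, adjusted p = 0.0117). Clk/Clk mouse 1 was the lowest, and without that mouse the call was lost. Nr1d1, encoding REV-ERBα, differed by -0.10 (adjusted p = 0.529) and read 5.74 to 6.33 in the 12 mice. Npas2, which can replace CLOCK, Arntl2, Rora and Rorb differed by 0.086 to 0.24 and were not called.

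In the negative limb, 4 of 14 tested genes fell and none was called higher, where 6.49% and 2.64% of all genes were. Without treated wild-type mouse 3 there was 1 higher. Per2, a core repressor of CLOCK and BMAL1, read 6.09, 5.38 and 7.21 in Clk/Clk mice and 8.40, 8.27 and 8.50 in treated wild type. Per3, its relative, read 6.14, 6.14 and 7.35 and 8.24, 8.21 and 8.0. In both genes every Clk/Clk mouse lay below every treated wild-type mouse, and Clk/Clk mouse 3 was the highest of its group. The differences were -2.16 (SE 0.343, adjusted p = 0.00125) for Per2 and -1.61 (SE 0.261, adjusted p = 0.00145) for Per3.

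Bhlhe40 (DEC1), a repressor that competes for E-boxes, read 8.65, 8.50 and 8.96 in Clk/Clk and 10.12, 11.37 and 10.31 in treated wild type, a 3.73-fold fall without overlap and a difference of -1.90 (SE 0.257, adjusted p = 0.000543). Timeless, which acts in DNA replication as well as being placed among clock genes, fell 4.41-fold, with a difference of -2.14 (SE 0.331, adjusted p = 0.00109). Per1, the third Period gene, was not called. It read 6.79, 7.53 and 7.18 in Clk/Clk mice and 6.95, 7.38 and 6.74 in treated wild type, overlapping values that differed by 0.14 (SE 0.214, adjusted p = 0.666). Treated wild type was lower than untreated wild type in Per1, with a difference of -1.32 (SE 0.214, adjusted p = 0.000373).

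Cry1, the cryptochrome expressed late in the cycle, differed by 0.52 (SE 0.164, adjusted p = 0.0389), which is under the 1.5-fold limit, and Cry2 by -0.12 (SE 0.112, adjusted p = 0.482). Ciart (CHRONO), another repressor, read 6.42, 6.01 and 6.38 against 6.79, 7.34 and 6.72 in treated wild type. Its values did not overlap, yet its difference of -0.68 (SE 0.247, adjusted p = 0.0658) missed the threshold. The casein kinases Csnk1d and Csnk1e, the ubiquitin ligase component Btrc, and Cipc, Fbxl21 and Bhlhe41 lay between -0.19 and 0.19 and were not called.

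Among PAR bZIP factors and direct clock outputs 8 of 19 tested genes were lower and 2 higher, with a median difference of -0.52. Over all genes 6.49% were lower and 2.64% higher. Dbp, the PAR bZIP factor that CLOCK and BMAL1 switch on directly, read 4.97, 4.86 and 7.06 in Clk/Clk mice and 10.10, 10.72 and 9.42 in treated wild type. Clk/Clk mice 1 and 2 were near the 40th percentile of each array, 4.87 to 4.92, mouse 3 was higher, and all 3 were below every other mouse of the series. The fall was 21.9-fold, a difference of -4.45 (SE 0.500, adjusted p = 0.000191), and a second Dbp probe set fell by 3.74. Tef read 8.69, 9.01 and 9.61 against 9.92, 10.12 and 9.82 in treated wild type, again with Clk/Clk mouse 3 nearest to wild type, and differed by -0.85 (SE 0.178, adjusted p = 0.00586). Hlf differed by -0.52 (adjusted p = 0.00665), under the 1.5-fold limit.

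Nfil3 (E4BP4), the repressor that competes with the PAR bZIP factors for D-boxes, went the other way. It read 8.07, 8.33 and 8.35 in Clk/Clk mice and 7.20, 6.71 and 7.67 in treated wild type, higher without overlap by 1.06 (SE 0.255, adjusted p = 0.0117). In untreated wild type it was higher still, at 9.11, 8.95 and 9.25.

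Usp2, a rhythmic deubiquitinase, read 5.38, 5.06 and 6.10 in Clk/Clk and 8.41, 9.37 and 8.52 in treated wild type, a 9.54-fold fall with a difference of -3.25 (SE 0.286, adjusted p = 4.88e-05). Tspan4, a tetraspanin membrane protein, read 8.02, 7.73 and 8.52 in Clk/Clk and 10.40, 10.51 and 10.30 in treated wild type, a difference of -2.31 (SE 0.168, adjusted p = 1.68e-05). Neither gene's groups overlapped, and Clk/Clk mouse 3 was again the highest of its group in both. Coq10b, which supports coenzyme Q function in mitochondria, read 9.15, 9.07 and 9.19 and 10.70, 10.51 and 10.38. Its 3 Clk/Clk values were close together and well below wild type, and its difference of -1.39 (SE 0.0805, adjusted p = 3.26e-06) had the smallest adjusted p of the clock genes.

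Noct (nocturnin), a rhythmic phosphatase, fell 4.35-fold, with a difference of -2.12 (SE 0.269, adjusted p = 0.000386). Wee1, the kinase that gates entry into mitosis, fell by 1.23 (SE 0.185, adjusted p = 0.000950), and Klf10, a glucose-responsive repressor, fell by 1.05 (SE 0.183, adjusted p = 0.00204). Klf10 was higher with bezafibrate in wild type (1.49, adjusted p = 4.91e-05), so its Clk/Clk level of 8.93, 8.84 and 8.99 lay between the treated and the untreated wild-type values. Tars, threonyl-tRNA synthetase, was higher by 0.61 (SE 0.126, adjusted p = 0.00502); without Clk/Clk mouse 3 or treated wild-type mouse 2 that call was lost. The outputs Upp2, Nampt, Alas1, Lpin1 and Gys2 differed by -0.55 to -0.0097 from treated wild type and were not called, Gys2 and Nampt for a difference under 1.5-fold. Leo1, Cys1 and Gstt2 lay at 0.011 to 0.21. Probe sets disagreed in Cys1 and Upp2: a second Cys1 probe set was called lower at -1.02 (adjusted p over all probe sets = 0.000172), and a dimmer Upp2 probe set at -2.30 (adjusted p over all probe sets = 0.00429). Among the called genes, 1 of 3 Tef, 1 of 2 Nr1d2, 2 of 3 Per2 and 4 of 6 Per3 probe sets were lower. Of all probe sets 3.98% were. The uncalled probe sets of these genes differed by -0.57 (Tef) to -0.0075 (Per3). Upp2, Nampt, Alas1, Lpin1 and Gys2 were each called lower in treated than in untreated wild type, with differences from -2.24 in Lpin1 to -0.69 in Gys2. The comparison of treated with untreated wild type shares its 3 treated arrays with the genotype comparison.

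**Figure D2:**
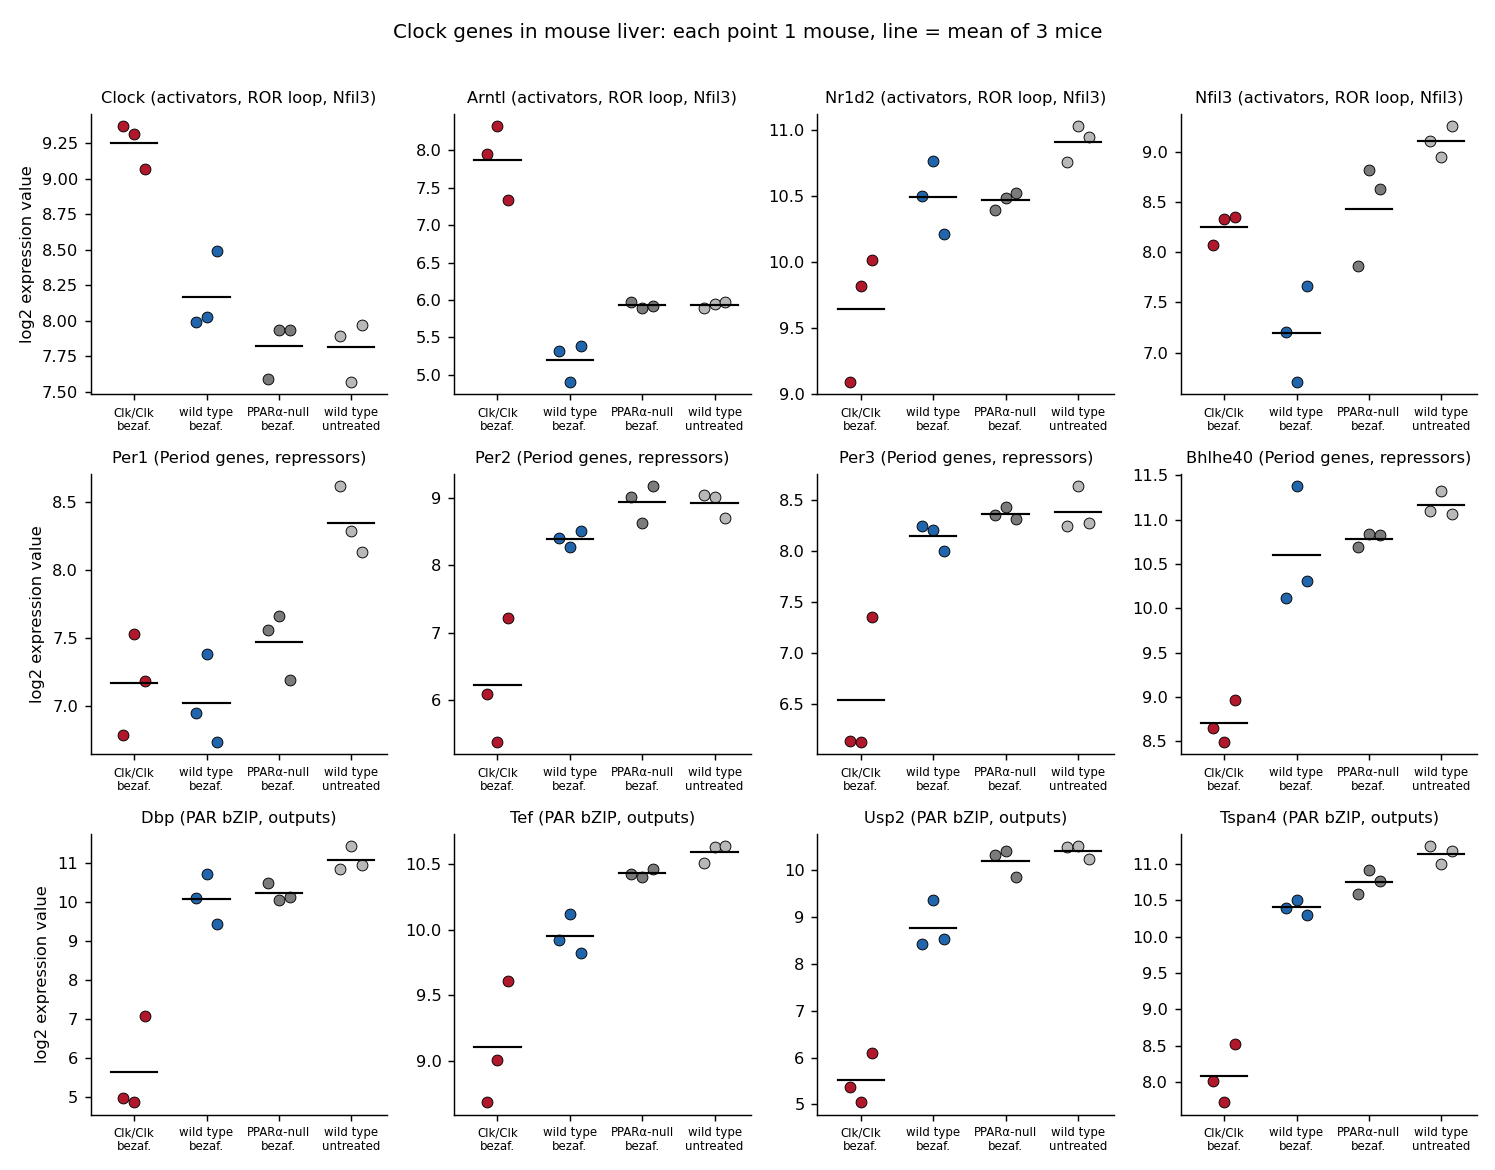
log2 expression values of 12 clock genes by mouse in the 4 groups (bezaf., bezafibrate), each point 1 mouse and each line the mean of 3 mice; the scale differs between panels. Clock and Arntl sit higher and Per2, Per3, Bhlhe40, Dbp, Tef, Usp2 and Tspan4 lower in the Clk/Clk mice than in any other group, while Per1 overlaps with treated wild type.

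Clock-gene promoters were read to show which of the elements named above lie near the start sites of the genes with the clearest differences. RefSeq windows (GRCm38.p6, 250 bases before to 50 after each start site) existed for 13 of the 17 called clock genes. They were searched on both strands for the E-box CACGTG, the D-box TTATGTAA or TTACGTAA, and the ROR element TAGGTCA that REV-ERB and ROR proteins bind. Of 32851 windows in the table, 7.15% held the E-box, 1.06% the D-box and 2.61% the ROR element. The 5 genes with the smallest adjusted p were Coq10b, Tspan4, Arntl, Usp2 and Dbp. The 250 bases before the Coq10b start (chr1:55052520-55052769, plus strand) and before the second Tspan4 start (chr7:141476130-141476379, plus strand) are shown because both hold an E-box, with matches in capitals. For Arntl the 27 bases around its ROR element are shown, which lies 30 bases after its second start site (chr7:113207531-113207557, plus strand).
Coq10b: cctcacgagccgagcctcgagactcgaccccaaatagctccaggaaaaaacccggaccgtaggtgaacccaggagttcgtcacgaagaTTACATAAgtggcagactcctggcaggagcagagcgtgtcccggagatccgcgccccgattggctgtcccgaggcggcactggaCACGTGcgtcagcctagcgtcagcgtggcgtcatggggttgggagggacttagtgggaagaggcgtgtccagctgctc
Tspan4: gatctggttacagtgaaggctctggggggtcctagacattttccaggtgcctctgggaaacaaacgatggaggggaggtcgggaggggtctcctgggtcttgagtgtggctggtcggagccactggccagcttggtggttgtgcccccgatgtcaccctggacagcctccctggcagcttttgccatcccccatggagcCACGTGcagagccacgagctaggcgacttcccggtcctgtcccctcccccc
Arntl: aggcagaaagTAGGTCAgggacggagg
The Coq10b stretch holds a D-box, read from the minus strand, at -162 and an E-box at -78, counted from the start site. The Tspan4 E-box lies at -51. The windows of Usp2, Dbp, Clock, Nr1d2 and Noct held none of these letters, nor did the first windows of Tspan4 and Arntl. Among the other called clock genes Tef and Tars held an E-box, Timeless and Per3 a D-box and Nfil3 a ROR element. These matches are descriptions of sequence and no binding was measured.

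Fatty acid oxidation genes were high in Clk/Clk livers on the drug and differed little from treated wild type. Against untreated wild type 21 of 34 tested peroxisomal and 18 of 23 tested mitochondrial genes were higher in Clk/Clk mice, where 10.6% of all genes were. Of the 34 genes of peroxisomal fatty acid oxidation, 2 were called higher in Clk/Clk than in treated wild type and none lower. Over all genes 2.64% were higher and 6.49% lower. Of the 23 genes of mitochondrial oxidation and ketogenesis none was called in either direction, with a median of 0.13 against 0.06 for the peroxisomal genes. Without treated wild-type mouse 3, 1 mitochondrial gene was called higher. Cyp4a14, the fatty acid ω-hydroxylase that responds strongly to fibrates, read 14.31, 14.36 and 14.36 in Clk/Clk and 14.22, 14.23 and 14.30 in treated wild type, against 8.48, 8.61 and 10.44 in untreated wild type. Its genotype difference was 0.096 (SE 0.429, adjusted p = 0.893). That SE pools the spread of all 4 groups. The SD of Cyp4a14 was 0.032 in Clk/Clk mice and 0.043 in treated wild type. It was 0.58 in PPARα-null mice and 1.10 in untreated wild type. Ehhadh, the peroxisomal bifunctional enzyme, read 14.47, 14.49 and 14.47 and 14.40, 14.40 and 14.42, a difference of 0.071 (SE 0.127, adjusted p = 0.723). Its SE pools the 4 groups in the same way. The SD of Ehhadh was 0.012 in Clk/Clk mice and 0.013 in treated wild type, against 0.12 in PPARα-null mice and 0.32 in untreated wild type. The Clk/Clk values of both genes lay just above those of treated wild type, and both genes were within 1 unit of the highest value in the data. Whether their signals were saturated was not tested.

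Pdk4, which spares glucose by blocking pyruvate dehydrogenase, read 13.22, 13.38 and 13.24 in Clk/Clk mice and 13.26, 12.89 and 13.21 in treated wild type. In untreated wild type it was near the array medians, at 5.45, 5.48 and 6.46, and in PPARα-null mice on the drug it read 9.13, 10.08 and 10.85. The genotypes of the comparison overlapped, with a difference of 0.16 (SE 0.365, adjusted p = 0.778). Vnn1 (pantetheinase), a strong PPARα target, differed by 0.048 (SE 0.421, adjusted p = 0.948) and the fasting hormone Fgf21 by 0.39 (SE 0.323, adjusted p = 0.406). In Pdk4 and Vnn1 too the SE took in a wider spread of the PPARα-null and untreated mice. The SDs of the compared groups were 0.087 and 0.20 in Pdk4 and 0.081 and 0.18 in Vnn1. Cpt1a, the carnitine shuttle enzyme, differed by -0.043 (SE 0.119, adjusted p = 0.821) and was not called in any of the 4 comparisons made. Against PPARα-null mice, 21 of the 34 peroxisomal and 18 of the 23 mitochondrial genes were higher in Clk/Clk mice, where 7.43% of all genes were. That comparison shares the Clk/Clk arrays with the main one.

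The receptor gene Ppara read 10.31, 10.46 and 10.34 in Clk/Clk mice and 10.81, 11 and 10.53 in treated wild type. The values did not overlap, and the difference of -0.41 (SE 0.142, adjusted p = 0.0561) missed the threshold. None of 20 tested PPAR, RXR and coregulator genes was called. Med1, a coactivator subunit, had the smallest adjusted p at 0.50 (SE 0.130, adjusted p = 0.0164), under 1.5-fold, and without treated wild-type mouse 3 there was 1 call higher. The 2 peroxisomal genes called higher were Pecr, a trans-enoyl-CoA reductase (0.74, SE 0.0827, adjusted p = 0.000184), and the membrane protein Pxmp2 (0.64, SE 0.127, adjusted p = 0.00433). Both were lower in treated than in untreated wild type, with differences of -1.29 and -0.80.

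In fatty acid uptake and lipid droplets, 4 of 34 tested genes were higher and 1 lower, against 2.64% and 6.49% of all genes. Vldlr, the receptor for triglyceride-rich lipoproteins, read 11.66, 11.86 and 11.81 in Clk/Clk and 10.67, 10.61 and 10.84 in treated wild type, without overlap and 2.10-fold higher, a difference of 1.07 (SE 0.190, adjusted p = 0.00234). Treated PPARα-null and untreated wild-type mice read 6.92 to 8.12. Plin5, a droplet coat protein, read 12.18, 12.11 and 12.13 in Clk/Clk and 10.86, 11.17 and 11.66 in treated wild type, higher by 0.91 (SE 0.154, adjusted p = 0.00177). Slc27a1, a fatty acid transporter, was higher by 1.04 (SE 0.167, adjusted p = 0.00140), and Plin4, another droplet protein, by 1.03 (SE 0.215, adjusted p = 0.00572). The fatty acid receptor and transporter Cd36 differed by 0.35 (SE 0.101, adjusted p = 0.0281) and Angptl4, an inhibitor of lipoprotein lipase, by 0.38 (SE 0.0956, adjusted p = 0.0135), both under 1.5-fold.

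Fabp5, a fatty acid binding protein, was the 1 gene of this list that fell. It read 11.23, 10.26 and 10.71 in Clk/Clk and 13.53, 13.17 and 12.46 in treated wild type, a 5.01-fold fall without overlap and a difference of -2.32 (SE 0.295, adjusted p = 0.000388). Without treated wild-type mouse 1 a second member was called lower. In ω-oxidation 1 of 10 tested genes was called lower and none higher, where 6.49% and 2.64% of all genes were. This was Cyp4f14, which inactivates leukotrienes and fell by 1.25 (SE 0.169, adjusted p = 0.000555). Without treated wild-type mouse 2 there were 3 called lower.

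Lipogenic genes were lower in Clk/Clk mice than in treated wild type. Of 26 tested 13 were called lower and 2 higher, with a list median of -0.63, where 6.49% of all genes were lower and 2.64% higher. Against untreated wild type 10 of the 26 were higher in Clk/Clk mice and 4 lower, where 10.6% and 8.82% of all genes were. Treated wild type was above untreated in 16 and below it in 1, where 12.8% and 7.77% of all genes were. Pnpla3, a triglyceride remodelling enzyme switched on by SREBP1 and ChREBP, read 6.58, 5.74 and 6.86 in Clk/Clk mice and 10.09, 9.24 and 9.58 in treated wild type. The groups were more than 2 units apart, a 9.45-fold fall with a difference of -3.24 (SE 0.415, adjusted p = 0.000401). Untreated wild type read 6.75, 6.55 and 6.03, so Clk/Clk mice on the drug overlapped with it. Elovl6, which lengthens palmitate, read 9.77, 9.35 and 9.58 in Clk/Clk and 11.27, 11.59 and 11.23 in treated wild type, lower without overlap, with a difference of -1.79 (SE 0.223, adjusted p = 0.000345).

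Me1, malic enzyme, supplies NADPH for fatty acid synthesis and read 12.86, 12.87 and 12.50 in Clk/Clk and 13.78, 14.04 and 13.63 in treated wild type. It was lower without overlap, with a difference of -1.08 (SE 0.141, adjusted p = 0.000457), and it stayed above untreated wild type by 1.84 (SE 0.141, adjusted p = 1.3e-06). The other called falls were Thrsp at -2.97, Scd2 at -1.74, Pklr at -1.63, Fasn at -1.45, Acly at -1.17, Acss2 at -1.06, Fads1 at -0.99, Fads2 at -0.80, Acacb at -0.74 and Elovl2 at -0.70. Fasn is fatty acid synthase and Acly makes its acetyl-CoA. The regulators Srebf1 (-0.11), encoding SREBP1, and Nr1h3 (0.063), encoding LXRα, were not called. Mlxipl, encoding ChREBP, differed by -0.55 (SE 0.0755, adjusted p = 0.000568), under the 1.5-fold limit.

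Elovl3, an elongase of very long fatty acids with a daily rhythm in liver, was one of 2 lipogenic genes called higher. It read 10.37, 10.70 and 10.03 in Clk/Clk and 7.83, 7.95 and 8.78 in treated wild type, 4.52-fold higher without overlap, a difference of 2.18 (SE 0.256, adjusted p = 0.000247). It was also higher than in treated PPARα-null mice, by 1.64 (SE 0.256, adjusted p = 0.000427). The other was Insig2, which holds SREBP in the endoplasmic reticulum, at 1.08 (adjusted p = 0.00216).

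**Figure D3:**
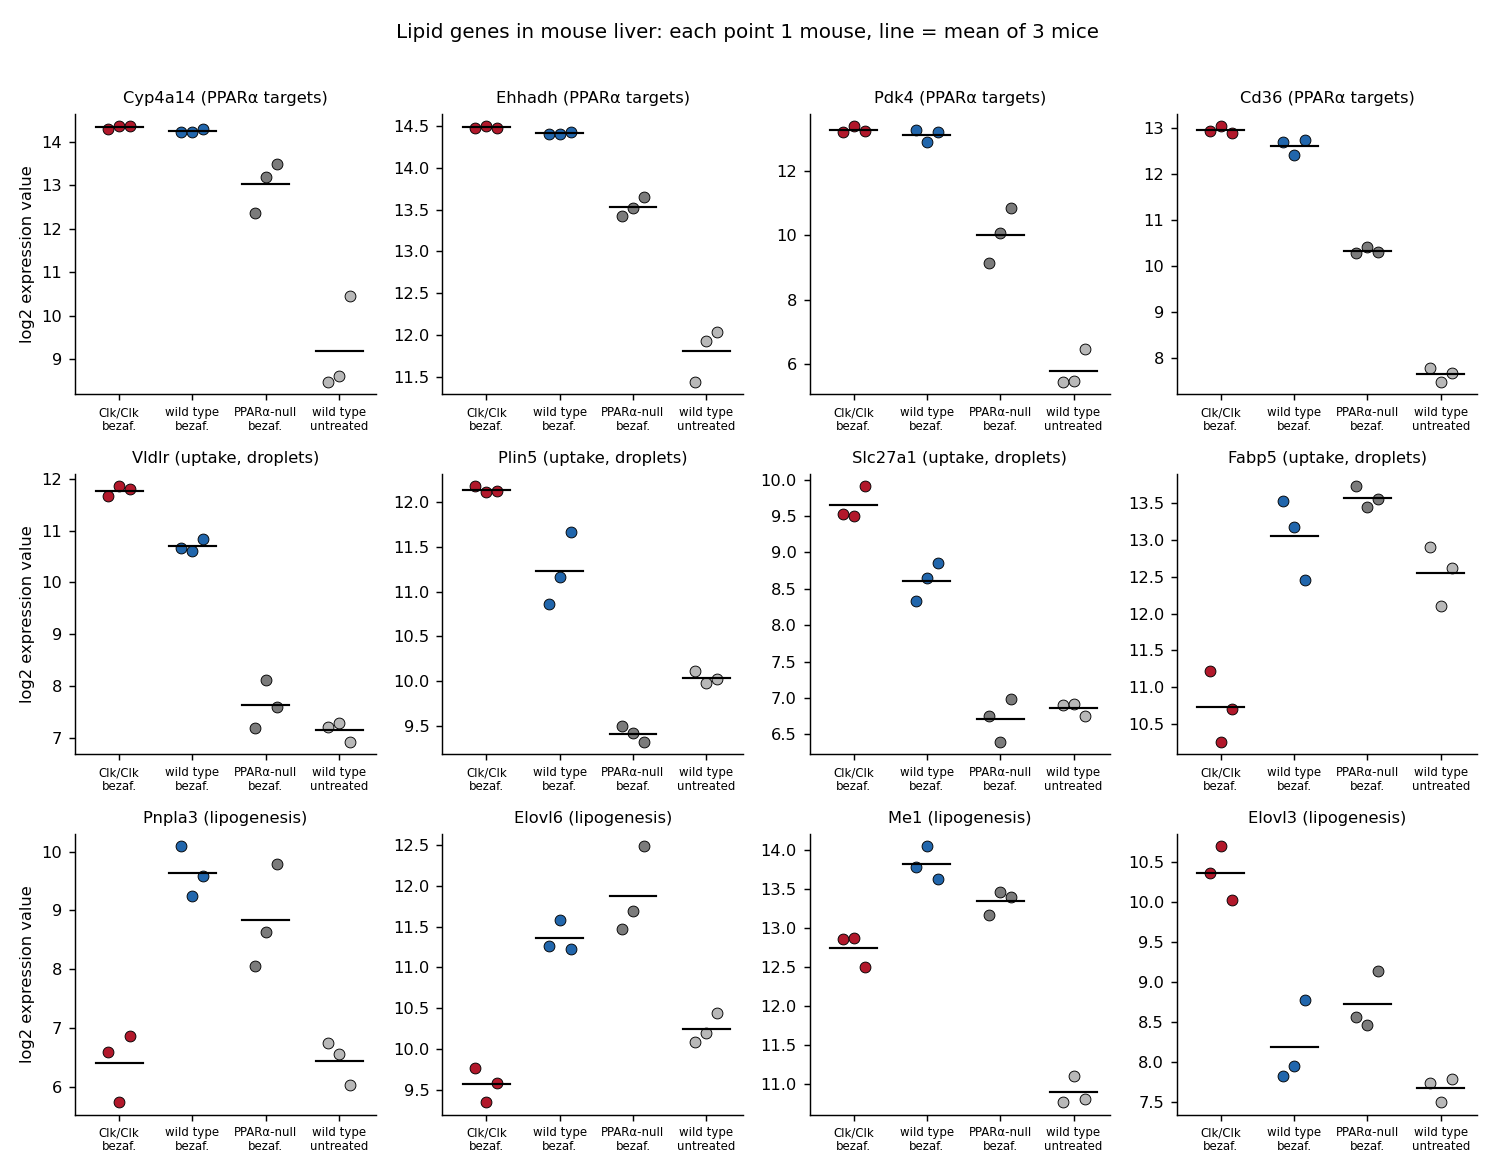
log2 expression values of 12 lipid genes by mouse in the 4 groups (bezaf., bezafibrate), each point 1 mouse and each line the mean of 3 mice; the scale differs between panels. Cyp4a14, Ehhadh and Pdk4 differ by 0.071 to 0.16 between the genotypes on the drug, Vldlr, Plin5, Slc27a1 and Elovl3 are highest in Clk/Clk mice, and Fabp5, Pnpla3, Elovl6 and Me1 are lower in Clk/Clk than in treated wild-type mice.

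In cholesterol synthesis 5 of 20 tested genes were called lower and none higher, with a median of -0.52, where 6.49% of all genes were lower and 2.64% higher. Against untreated wild type 12 of the 20 were higher in Clk/Clk mice and 1 lower, where 10.6% and 8.82% of all genes were. Treated wild type was above untreated in 14 and below it in none, where 12.8% and 7.77% of all genes were. Of the 5, all but Cyp51 were lower in every Clk/Clk mouse than in any treated wild-type mouse. The mean level of the 20 genes was 9.64 and 9.63 in Clk/Clk mice 1 and 2 and 10.56 in mouse 3, against 10.48, 10.48 and 10.28 in treated wild type. Cyp51, a demethylase of the pathway, read 8.83, 9.0 and 10.35 in Clk/Clk and 10.61, 10.89 and 10.29 in treated wild type, and Clk/Clk mouse 3 overlapped with wild type. It differed by -1.20 (SE 0.311, adjusted p = 0.0163), and its call was lost without Clk/Clk mouse 1, Clk/Clk mouse 2 or treated wild-type mouse 2. Pmvk, phosphomevalonate kinase, read 8.69, 8.66 and 9.75 in Clk/Clk and 10.09, 10.13 and 10.12 in treated wild type, a difference of -1.08 (SE 0.237, adjusted p = 0.00733). The other calls were the sterol desaturase Sc5d (-0.88), the reductase Tm7sf2 (-0.83) and the cholesterol transfer protein Stard4 (-0.81), which was lost without Clk/Clk mouse 2. Without Clk/Clk mouse 3 the list gave 13 calls, without Clk/Clk mouse 1 or treated wild-type mouse 2 it gave 3, and without Clk/Clk mouse 2 it gave 2.

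In bile acid synthesis and transport 4 of 25 tested genes were higher and 2 lower, with a list median of 0.38, against 2.64% and 6.49% of all genes. Slco1a1, a sinusoidal organic anion transporter, read 8.66, 8.70 and 8.63 in Clk/Clk and 10.63, 10.82 and 10.50 in treated wild type. The groups did not overlap and the mice of each lay close together, with a difference of -1.99 (SE 0.0801, adjusted p = 4.02e-07). Slco1a4, a related transporter, was higher by 2.34 (SE 0.346, adjusted p = 0.000858). Fgfr4, the receptor through which FGF15 restrains bile acid synthesis, was higher by 0.93 (SE 0.173, adjusted p = 0.00296) and Abcb11, the bile salt export pump, by 0.82 (SE 0.123, adjusted p = 0.000920). Cyp8b1, which makes cholic acid, was higher by 1.34, and the reductase gene Akr1c6 fell by 0.74 (SE 0.166, adjusted p = 0.00834). Cyp7a1, the rate-limiting enzyme, varied widely, at 6.91, 8.70 and 6.02 in Clk/Clk and 5.50, 7.56 and 6.35 in treated wild type, and was not called (0.74, SE 0.650, adjusted p = 0.434). Without treated wild-type mouse 1 the lower calls of this list numbered 4 and without mouse 3 they numbered 1.

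Of 22 lipoprotein genes 2 were higher and 3 lower, against 2.64% and 6.49% of all genes. Scarb1, the HDL receptor SR-BI, was higher by 1.12 (SE 0.128, adjusted p = 0.000208) and the cholesterol exporter Abcg8 by 0.82 (SE 0.162, adjusted p = 0.00443). Lipg, endothelial lipase, fell by 1.78 (SE 0.328, adjusted p = 0.00290). The other 2 falls were Pltp, which transfers phospholipids between lipoproteins (-1.18), and the lipid transfer inhibitor Apof (-0.60, SE 0.0908, adjusted p = 0.000976), whose call was lost without Clk/Clk mouse 2, Clk/Clk mouse 3 or treated wild-type mouse 1.

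In gluconeogenesis and glucose handling 7 of 20 tested genes were higher and 2 lower, with a list median of 0.42, against 2.64% and 6.49% of all genes. The glucose-producing enzymes Pck1, Pcx and G6pc were among the 7, and the glucose transporter Slc2a2 was one of the 2. Against untreated wild type 3 of the 20 were higher in Clk/Clk mice and 11 lower, where 10.6% and 8.82% of all genes were. Treated wild type was above untreated in 2 and below it in 12, where 12.8% and 7.77% of all genes were. Pck1, which commits carbon to gluconeogenesis, read 10.06, 11.30 and 10.21 in Clk/Clk and 8.28, 8.90 and 8.15 in treated wild type. The groups did not overlap and differed 4.23-fold, by 2.08 (SE 0.347, adjusted p = 0.00166). Untreated wild type was higher than both, at 13.27, 13.08 and 12.95. Pcx, pyruvate carboxylase, was higher by 0.66 (SE 0.0770, adjusted p = 0.000244), and Irs2, the insulin receptor adaptor, by 1.01 (SE 0.144, adjusted p = 0.000709).

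Slc2a2 (GLUT2), the bidirectional glucose transporter of hepatocytes, read 10.17, 9.82 and 8.87 in Clk/Clk mice and 11.32, 12.15 and 11.78 in treated wild type. Every Clk/Clk value lay below every other value in the series, and the difference was -2.13 (SE 0.282, adjusted p = 0.000482). The other called genes were Igfbp1 (1.88), Ppp1r3c (1.32), Slc37a4 (0.78) and the glucose-6-phosphatase gene G6pc (0.62), all higher, and the glycogen branching enzyme Gbe1 (-0.77), lower. Without Clk/Clk mouse 1, Clk/Clk mouse 3 or treated wild-type mouse 2 there was 1 call lower in place of 2.

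Amino acid catabolism was the list with the most genes called higher, 15 of 33, with none lower and a median of 0.54, where 2.64% of all genes were higher. Bhmt, which remethylates homocysteine with betaine, read 14.28, 13.98 and 13.92 in Clk/Clk and 11.37, 11.56 and 12.54 in treated wild type. Clk/Clk mice were 4.71-fold higher without overlap, a difference of 2.23 (SE 0.276, adjusted p = 0.000330). Untreated wild type read 14.19, 14.24 and 14.05. Cth, cystathionine γ-lyase, read 12.86, 12.76 and 12.78 in Clk/Clk and 11.41, 11.17 and 11.51 in treated wild type, a difference of 1.44 (SE 0.111, adjusted p = 2.41e-05). Hal, the first enzyme of histidine breakdown, read 9.66, 9.70 and 9.87 and 8.47, 8.38 and 7.99, a difference of 1.46 (SE 0.134, adjusted p = 6.29e-05).

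Cps1, the entry enzyme of the urea cycle, read 13.56, 13.59 and 13.52 in Clk/Clk and 12.59, 12.66 and 12.83 in treated wild type. It was higher without overlap by 0.87 (SE 0.0765, adjusted p = 4.99e-05). Aass, which starts lysine breakdown, was higher by 1.25 (SE 0.121, adjusted p = 8.61e-05). The other calls were Agxt (1.67), Got1 (1.56), Cbs (1.33), Gnmt (1.06), Oat (1.05), Asl (1.02), Otc (0.77), Kmo (0.76), Fah (0.67) and Gpt (0.65). In wild type bezafibrate lowered 26 of these 33 genes, where it lowered 7.77% of all genes, and Clk/Clk mice on the drug were below untreated wild type in 13, where 8.82% of all genes were. These comparisons share arrays with the main one.

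Genes of DNA replication and the cell cycle were lower in Clk/Clk livers, 24 of 32 tested with none higher and a median of -1.58, where 6.49% of all genes were lower. Mcm5, a subunit of the replicative helicase, read 5.43, 5.14 and 5.77 in Clk/Clk mice and 9.53, 10.60 and 9.03 in treated wild type. Treated wild-type mouse 2 was the highest, no values overlapped, and the difference was 19.4-fold, or -4.28 (SE 0.445, adjusted p = 0.000119). Untreated wild type read 6.17, 5.38 and 6.01, and the difference of Clk/Clk mice from it was -0.41 (SE 0.445, adjusted p = 0.490). Mcm6 read 6.09, 6.07 and 6.18 in Clk/Clk and 9.83, 10.77 and 9.33 in treated wild type, a difference of -3.86 (SE 0.397, adjusted p = 0.000113).

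Ccnd1, the cyclin that starts the G1 phase, read 9.60, 9.44 and 9.11 in Clk/Clk and 11.69, 11.80 and 11.49 in treated wild type. It was lower without overlap, with a difference of -2.28 (SE 0.237, adjusted p = 0.000119) and overlapped with treated PPARα-null mice, which read 9.10, 9.47 and 9.77. Ccna2, the S-phase cyclin, fell by 1.57 (SE 0.179, adjusted p = 0.000201). Rrm2, a subunit of ribonucleotide reductase, fell by 3.61 (SE 0.536, adjusted p = 0.000895), and Cdc6, which loads the helicase, fell by 2.99 (SE 0.582, adjusted p = 0.00391). In Cdc6 treated wild-type mouse 2 read 7.98 against 5.74 and 4.97 in mice 1 and 3, while the Clk/Clk mice were below the filter level at 3.17, 3.28 and 3.29.

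Of the 15 largest falls, 6 more are given here. Fignl1 and Chek1, which act in DNA repair and its checkpoint, differed by -3.86 and -3.04. Uhrf1, which maintains DNA methylation at replication, differed by -3.48, the kinetochore gene Zwilch by -3.17, the condensin gene Smc2 by -3.07 and Shcbp1 by -3.12. Their adjusted p ran from 0.000104 in Zwilch to 0.00129 in Uhrf1, and the Clk/Clk values of Fignl1, Zwilch and Shcbp1 were all below the filter level. Bezafibrate raised 21 of the 32 listed genes in wild type, where it raised 12.8% of all genes. Clk/Clk mice on the drug were above untreated wild type in 4 of the 32 and below it in 4, where 10.6% and 8.82% of all genes were.

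Interferon-responsive genes were lower, 14 of 22 tested with none higher and a median of -1.24, where 6.49% of all genes were lower. Usp18, which restrains interferon signalling, read 6.84, 6.40 and 7.52 in Clk/Clk and 10.02, 9.61 and 8.29 in treated wild type. Treated wild-type mouse 1 was the highest and mouse 3 the lowest of its group, and no values overlapped, with a difference of -2.39 (SE 0.420, adjusted p = 0.00219). The antiviral sensor gene Dhx58 read 5.93, 5.78 and 5.89 in Clk/Clk and 8.28, 7.75 and 7.08 in treated wild type. The wild-type mice stood in the same order, and the difference was -1.84 (SE 0.223, adjusted p = 0.000295). Oasl1 differed by -1.84 (SE 0.245, adjusted p = 0.000487) and the RNA sensor Ddx58 (RIG-I) by -0.91 (SE 0.148, adjusted p = 0.00147). The count ran from 11 without Clk/Clk mouse 1, Clk/Clk mouse 2 or treated wild-type mouse 1 to 17 without treated wild-type mouse 3.

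The mean level of the 22 interferon genes was 9.08, 8.35 and 7.81 in treated wild-type mice 1 to 3 and 7.25, 6.86 and 7.57 in Clk/Clk mice. Treated PPARα-null mice read 7.55, 7.24 and 7.42, and untreated wild type 7.51, 7.16 and 7.16, so the treated wild-type mice stood above all other groups. Macrophage markers were lower in the same mice. Of 16 tested 4 were lower in Clk/Clk and none higher, where 6.49% of all genes were lower. The summed linear level of 17 markers was 5951 to 7827 in Clk/Clk mice against 8466 to 13220 in treated wild type, 9451 to 9810 in PPARα-null and 8468 to 9353 in untreated wild type, with Itgam under the filter level on every array. Their part in the interferon result was not tested.

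The Kupffer cell receptor Clec4f read 8.64, 8.53 and 8.78 in Clk/Clk and 9.74, 9.42 and 9.33 in treated wild type. It was lower without overlap, with a difference of -0.85 (SE 0.119, adjusted p = 0.000642), and the difference from treated PPARα-null mice was -0.92 (SE 0.119, adjusted p = 0.000103). Cd5l, a protein secreted by tissue macrophages, fell by 0.82 (SE 0.156, adjusted p = 0.00358) and Ly86, which serves toll-like signalling, fell by 1.0 (SE 0.221, adjusted p = 0.00769). Cd68 fell by 0.72 (SE 0.188, adjusted p = 0.0168), a call lost without Clk/Clk mouse 1, Clk/Clk mouse 2 or treated wild-type mouse 1. Without treated wild-type mouse 3 the macrophage calls numbered 8 in place of 4.

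Of 12 tested lymphocyte and blood cell markers 2 were lower and none higher, where 6.49% and 2.64% of all genes were. Alas2, the red cell enzyme of haem synthesis, read 6.26, 5.26 and 5.80 in Clk/Clk and 7.90, 7.01 and 7.10 in treated wild type, a difference of -1.57 (SE 0.280, adjusted p = 0.00241) without overlap. Ighm, the immunoglobulin heavy chain of B cells, fell by 1.45 (SE 0.299, adjusted p = 0.00534) on a probe set that may match several transcripts, and another Ighm probe set differed by 0.038. The summed level of the 17 blood markers with a probe set was 972 to 1006 in Clk/Clk against 1104 to 1825 in treated wild type, with Cd3g and Ppbp under the filter level on every array. The same held for the probe set that names Hba-a1 alone, but a probe set shared by the haemoglobin genes Hba-a2 and Hba-a1, outside this sum, read 7.27 to 10.13 in Clk/Clk mice and 11.15 to 12.34 in treated wild type. Their part in other results was not tested.

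Of 17 stellate cell and fibroblast markers 3 were lower and 1 higher, where 6.49% and 2.64% of all genes were. The lower ones were the collagens Col3a1 (-1.33, SE 0.186, adjusted p = 0.000642) and Col1a2 (-0.79) and Lum (-1.02). The higher one was Ecm1 (0.59), whose call was lost without Clk/Clk mouse 2, Clk/Clk mouse 3 or treated wild-type mouse 1. Of 16 sinusoidal endothelial markers only Bmp2 was called, higher (0.60), where 2.64% of all genes were higher. Its call was lost without Clk/Clk mouse 2 or treated wild-type mouse 1 or 2. No marker of cholangiocytes (5 tested) or of pancreas, fat or muscle (6 tested) was called, but without Clk/Clk mouse 1 there was 1 cholangiocyte call and without mouse 3 there was 1 of the latter. Hepatocyte markers summed to 127400 to 128200 in Clk/Clk mice and 115900 to 118700 in treated wild type, with Cps1 the 1 call of 9.

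**Figure D4:**
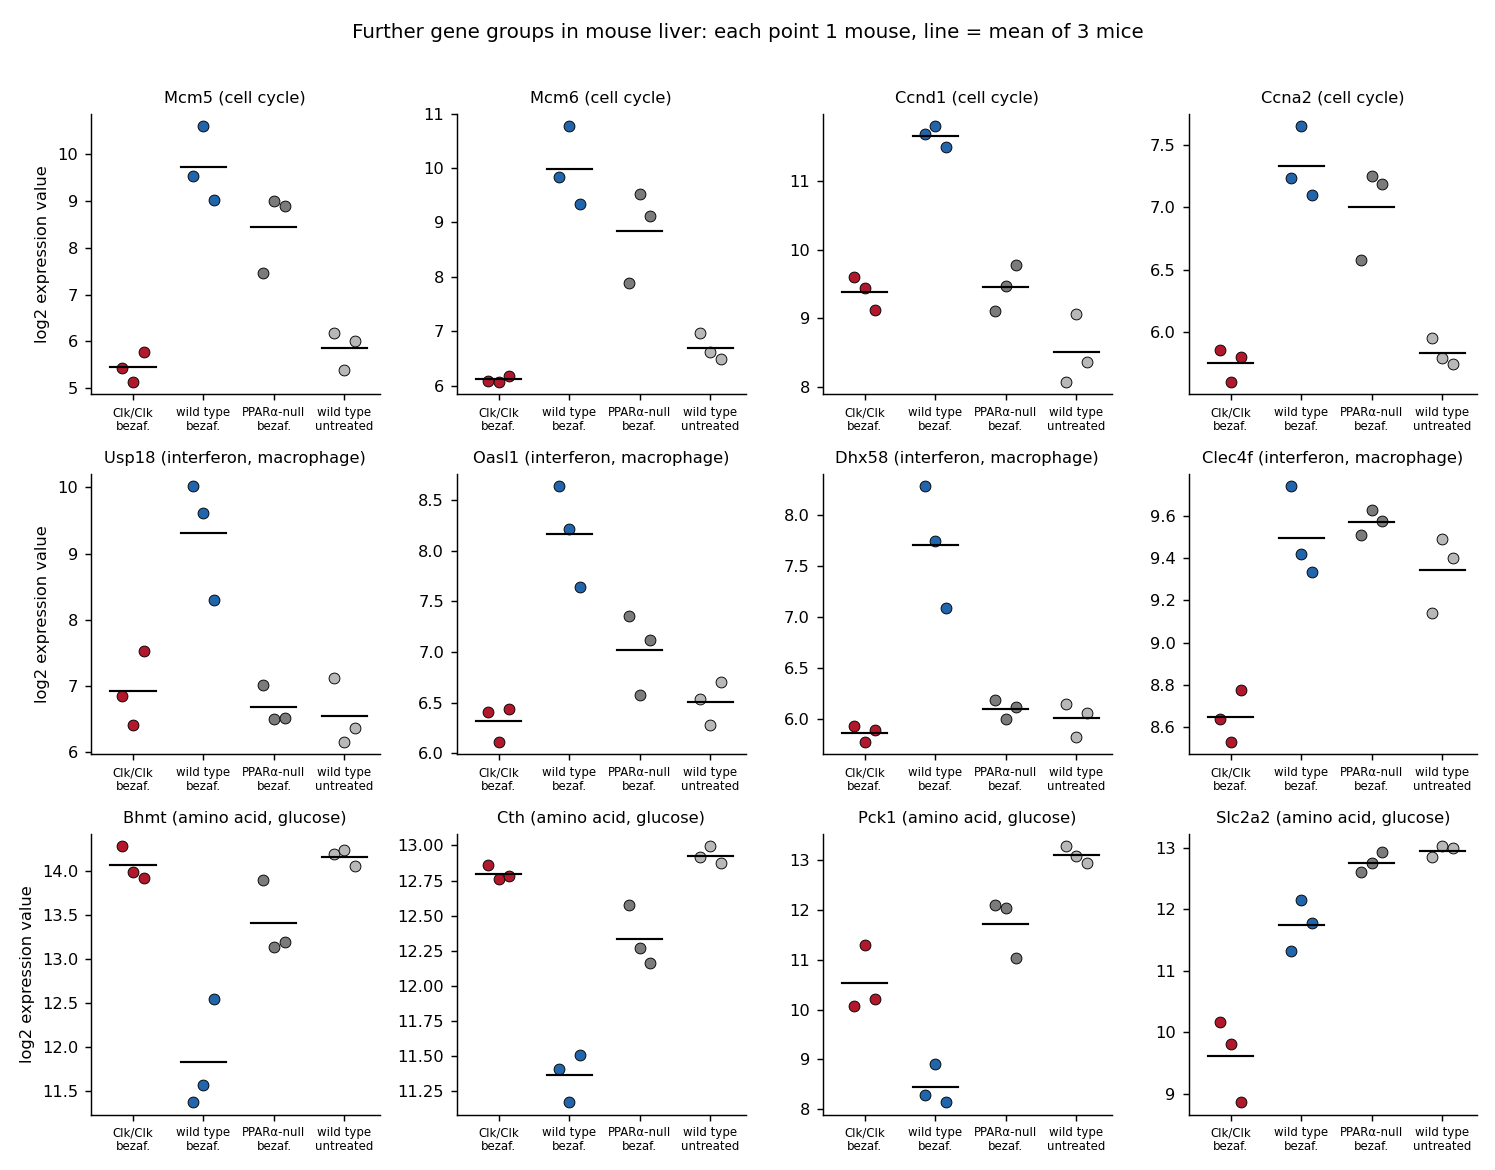
log2 expression values of 12 genes by mouse in the 4 groups (bezaf., bezafibrate), each point 1 mouse and each line the mean of 3 mice; the scale differs between panels. The cell cycle genes, the interferon genes and Clec4f are lower in Clk/Clk than in treated wild-type mice, Bhmt, Cth and Pck1 are higher, and Slc2a2 is lowest in Clk/Clk mice.

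Male-predominant liver genes, which follow pulsatile growth hormone, were lower in 7 of 16 tested and higher in 1, with a median of -0.69, where 6.49% of all genes were lower and 2.64% higher. Mup3, a major urinary protein, read 12.36, 11.79 and 11.92 in Clk/Clk and 13.35, 13.31 and 13.03 in treated wild type. It was lower without overlap, with a difference of -1.21 (SE 0.133, adjusted p = 0.000170). Ugt2b1, a glucuronosyltransferase, fell by 1.16 (SE 0.104, adjusted p = 5.48e-05). Slco1a1, described above, and the complement genes C8a and C6 fell as well, as did Nudt7 (-0.77) and Nat8 (-0.90), and Elovl3 was the 1 that rose. Hsd3b5, a male steroid enzyme, overlapped between the groups, at 6.30, 4.72 and 5.39 in Clk/Clk and 4.66, 4.59 and 5.87 in treated wild type against 12.05, 12.75 and 12.50 in untreated wild type, a genotype difference of 0.43 (SE 0.416, adjusted p = 0.480). Of 16 female-predominant genes 1 was lower, Prom1 (-1.64), and 1 higher, Cyp2b10, against the same shares of all genes, 6.49% and 2.64%.

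Of 14 growth hormone and IGF1 genes 1 was higher and 2 lower, where 2.64% and 6.49% of all genes were. They were Igfbp2 (0.71, adjusted p = 0.0471), Igfals (-0.66) and Onecut1 (-0.76). Igf1 itself had the smallest adjusted p of the list, with a difference of -0.58 (SE 0.0815, adjusted p = 0.000642), just under the 1.5-fold limit. The Igfbp2 call was lost when any one of the 6 mice was left out. Igfals was lost without Clk/Clk mouse 2 or treated wild-type mouse 1, and the Onecut1 call needed mice 1 and 3 of both genotypes.

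Drug-metabolising genes moved in both directions, 8 of 31 higher and 4 lower, with a median of 0.01, against 2.64% and 6.49% of all genes. Cyp2b10, the classic target of the receptor CAR, read 8.34, 9.39 and 9.19 in Clk/Clk and 5.93, 6.37 and 7.64 in treated wild type. It was higher without overlap by 2.33 (SE 0.419, adjusted p = 0.00250), all 3 of its probe sets were called higher, and its level in untreated wild type was 9.18, 9.36 and 8.60. Sult1a1, a sulfotransferase, was higher by 2.06 (SE 0.345, adjusted p = 0.00168) and Cyp2c50 by 2.39 (SE 0.516, adjusted p = 0.00680). Both were lower in treated than in untreated wild type, by a difference of -6.84 for Cyp2c50 and -3.35 for Sult1a1. Cyp2c55 fell by 1.27 (SE 0.198, adjusted p = 0.00117), the vitamin D hydroxylase Cyp2r1 fell by 1.31 (SE 0.108, adjusted p = 3.59e-05) and Cyp2f2 fell by 0.70 (SE 0.117, adjusted p = 0.00166). Genes of the Cyp2c family are near-identical in places, so their signals may be shared between members.

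Of 26 NRF2 and glutathione genes 7 were lower and none higher, with a median of -0.54, where 6.49% of all genes were lower. Against untreated wild type 15 of the 26 were higher in Clk/Clk mice and 2 lower, where 10.6% and 8.82% of all genes were. Treated wild type was above untreated in 17 and below it in 2, where 12.8% and 7.77% of all genes were. Nfe2l2, encoding NRF2, read 10.70, 10.23 and 10.79 in Clk/Clk and 11.49, 11.58 and 11.32 in treated wild type, lower without overlap, with a difference of -0.89 (SE 0.174, adjusted p = 0.00397). Gsta4, a glutathione transferase, fell by 1.33 (SE 0.186, adjusted p = 0.000648) and the pentose phosphate enzyme Pgd fell by 0.79 (SE 0.0970, adjusted p = 0.000323). Gstm3 ranged from 9.75 to 12.43 in Clk/Clk mice and from 12.26 to 13.75 in treated wild type, overlapping at Clk/Clk mouse 1, and fell by 2.32 (SE 0.563, adjusted p = 0.0121). Without Clk/Clk mouse 3 the list had 4 lower calls, and without Clk/Clk mouse 1 or treated wild-type mouse 3 it had 1 higher.

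Heat shock genes were lower in 4 of 16, where 6.49% of all genes were lower. Hspa1a, the inducible HSP70, read 7.28, 5.60 and 6.91 in Clk/Clk and 8.98, 9.22 and 8.48 in treated wild type, a difference of -2.30 (SE 0.477, adjusted p = 0.00547) without overlap. Its co-chaperone Dnajb1 fell by 1.26 (SE 0.227, adjusted p = 0.00246) and Hspa1b differed by -1.04, while Hspa1a and Hspa1b are near-identical copies whose signals cannot be told apart here. Hspb1, a small heat shock protein, differed by -0.82 and lost its call without Clk/Clk mouse 1 or treated wild-type mouse 3. Without the latter the list had 2 lower calls. Cirbp, the cold-inducible RNA-binding protein with a temperature-driven rhythm, was the 1 gene higher, by 0.88 (SE 0.165, adjusted p = 0.00317).

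Of 27 genes of endoplasmic reticulum and integrated stress 3 were higher, where 2.64% of all genes were. Trib3, a pseudokinase induced by ATF4, read 8.22, 9.39 and 9.53 in Clk/Clk and 7.22, 7.12 and 7.48 in treated wild type, higher without overlap by 1.77 (SE 0.361, adjusted p = 0.00496). Atf5 was higher by 0.99 (SE 0.221, adjusted p = 0.00820). Ddit3 (CHOP) was called (0.92, adjusted p = 0.0394), but not without Clk/Clk mouse 2, Clk/Clk mouse 3 or any one of the 3 treated wild-type mice. Of 20 glucocorticoid-responsive genes Klf9 (0.64), Sgk1 (0.65) and Errfi1 (0.65) were higher, where 2.64% of all genes were. Without Clk/Clk mouse 2 none of the list was called higher, and without treated wild-type mouse 1 only 1 was.

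Complement and coagulation genes fell in 5 of 33 with none higher, where 6.49% of all genes were lower, and the 5 were complement genes. Without Clk/Clk mouse 2 or treated wild-type mouse 1 there was 1 rise. C8a, a subunit of the membrane attack complex, read 9.48, 8.83 and 8.70 in Clk/Clk and 10.58, 10.66 and 10.97 in treated wild type, a difference of -1.73 (SE 0.174, adjusted p = 0.000104) without overlap. C6 and C8b, of the same complex, differed by -1.57 and -1.08, the lectin Mbl2 by -1.30 and C2 by -0.69. Of 25 acute phase genes 6 were higher, where 2.64% of all genes were, the interleukin 6 receptor gene Il6ra (1.35, SE 0.223, adjusted p = 0.00158), Il1rn (0.79), Serpina3n (0.71), Lbp (0.90), Fgl1 (1.5) and Itih3 (0.60), and 1 was lower, Orm1 (-1.05). That fall was not called without Clk/Clk mouse 2 or mouse 3, and without treated wild-type mouse 3 there were 2 falls. Against untreated wild type 2 of the 25 acute phase genes were higher in Clk/Clk mice and 11 lower, where 10.6% and 8.82% of all genes were. Treated wild type was above untreated in none and below it in 15, where 12.8% and 7.77% of all genes were. The respiratory chain list gave 2 calls of 29, both lower, a share of 6.9% against 6.49% of all genes, in citrate synthase (Cs, -0.68, SE 0.109, adjusted p = 0.00138) and the cytochrome oxidase subunit Cox7a1 (-1.14, SE 0.259, adjusted p = 0.00885).

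Several of the largest single differences lay outside the lists. Mme, neprilysin, a membrane peptidase, read 3.86, 3.62 and 4.37 in Clk/Clk mice and 8.79, 8.74 and 8.27 in treated wild type. The Clk/Clk values were below the filter level of 4.87 to 4.92, and the other groups all read above 8, with a difference of -4.65 (SE 0.230, adjusted p = 1.33e-06). A second Mme probe set fell by 1.99. Dio1, the deiodinase that activates thyroid hormone, read 3.97, 4.69 and 3.85 in Clk/Clk, under the filter level, and 9.0, 7.61 and 8.58 in treated wild type. Its values in treated PPARα-null mice (6.33, 10.59 and 10.39) and untreated wild type (10.27, 11.16 and 6.75) were widely spread, the difference was -4.23 (SE 1.18, adjusted p = 0.0235), and the call needed mice 1 and 3 of both genotypes.

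Among the rises Ptger3, a prostaglandin E2 receptor, read 7.31, 7.35 and 7.31 in Clk/Clk and 3.26, 3.18 and 3.26 in treated wild type. The Clk/Clk mice were within 0.04 of each other and above every other mouse of the series, a difference of 4.09. The probe set passed the filter through the Clk/Clk arrays alone, and the other 9 values were under the filter level, so the difference is against a level not measured above it. A second Ptger3 probe set, under the filter level, differed by 0.095. Pbld1 read 10.78, 10.73 and 10.51 in Clk/Clk and 4.57, 8.97 and 4.84 in treated wild type. Treated wild-type mice 1 and 3 were low and mouse 2 lay nearer to the Clk/Clk values, and the difference was 4.55 (SE 0.882, adjusted p = 0.00383).

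Pmm1, a phosphomannomutase, read 10.17, 10.50 and 10.55 in Clk/Clk, 8.0, 8.32 and 8.64 in treated wild type and 5.19, 4.67 and 5.23 in untreated wild type. It was higher in Clk/Clk than in treated wild type by 2.09 (SE 0.195, adjusted p = 7.32e-05) and higher in treated than in untreated wild type by 3.29. Npnt, an extracellular matrix protein, was higher by 2.46 (SE 0.354, adjusted p = 0.000737), the purinergic receptor P2ry14 by 2.26 (SE 0.223, adjusted p = 9.37e-05), the stress-responsive Ndrg1 by 2.05 (SE 0.201, adjusted p = 9.22e-05) and the kinase Camk1d by 2.13 (SE 0.274, adjusted p = 0.000401). In Npnt and P2ry14 the treated wild-type mice lay between the Clk/Clk mice and the untreated ones.

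**Figure D5:**
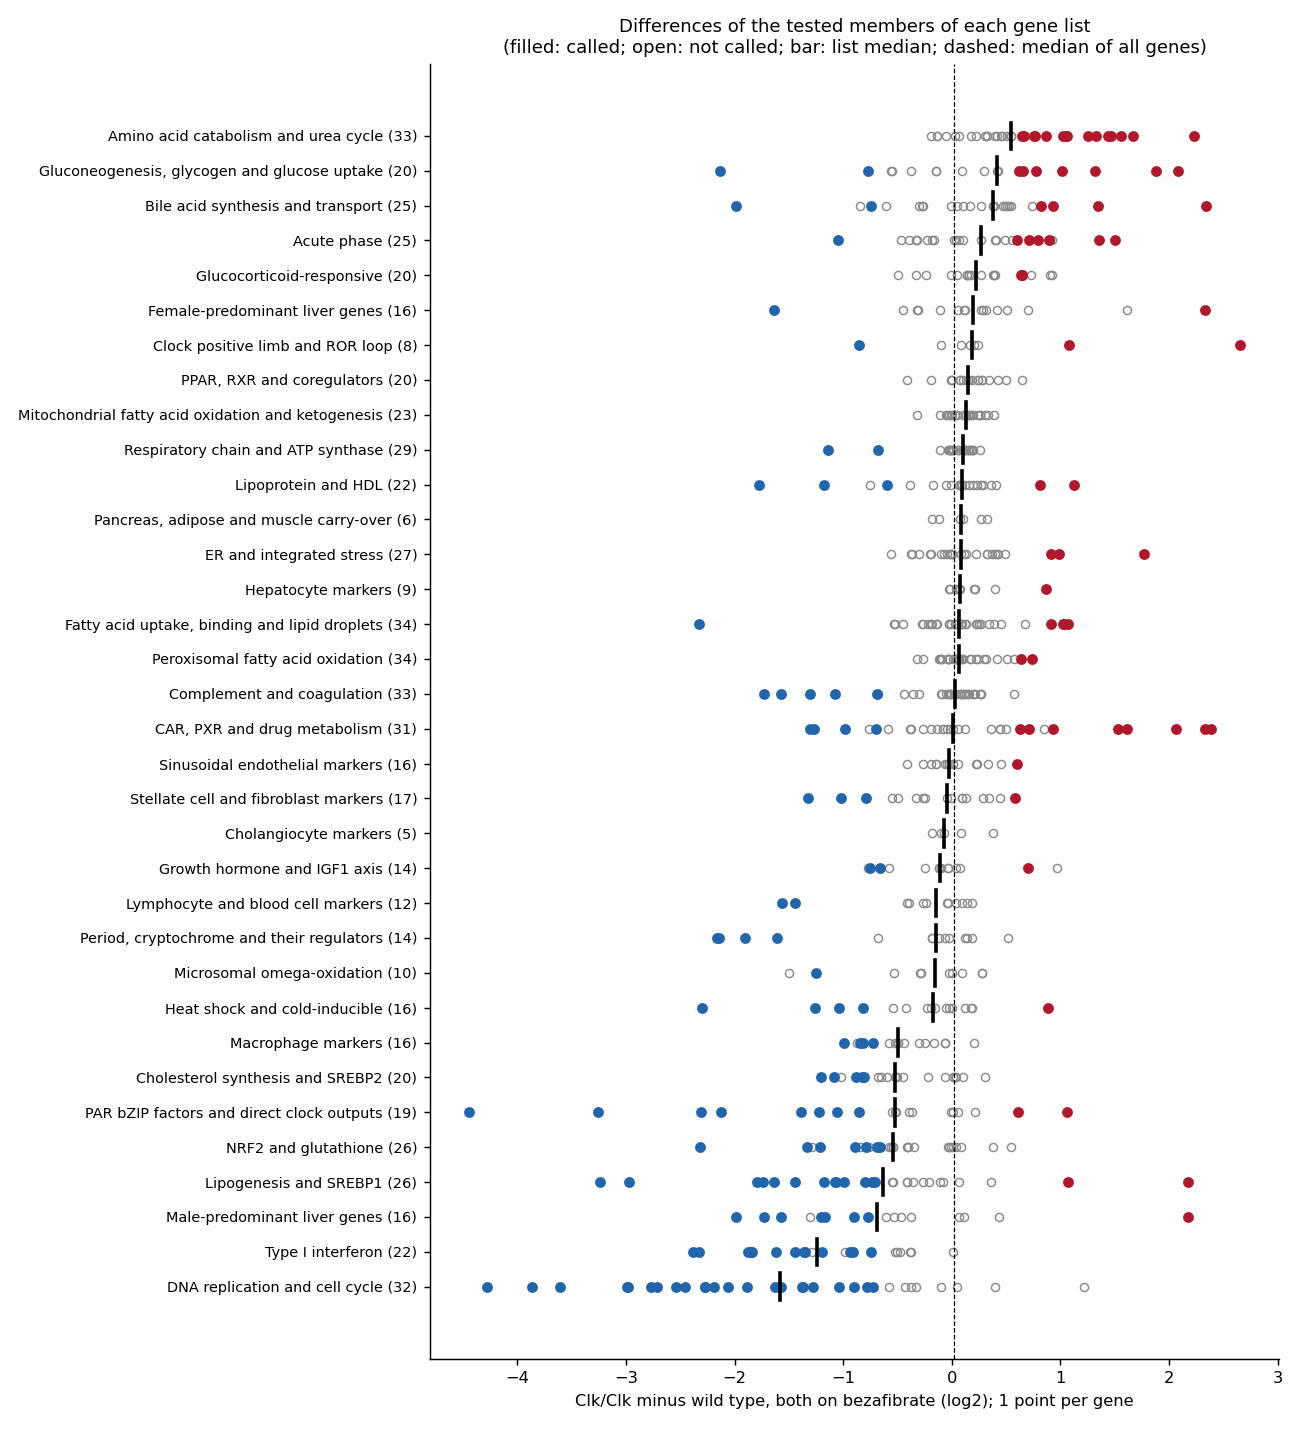
Difference between Clk/Clk and wild type on bezafibrate (log2, horizontal axis) for the tested members of 34 gene lists, 1 point per gene, with filled points called, open points not called, bars at each list's median and the dashed line at the median of all genes. Lists are ordered by median, from DNA replication and cell cycle (-1.58) at the bottom to amino acid catabolism and urea cycle (0.54) at the top; the tested number stands in brackets.

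Genes near Clock on its chromosome were called at about the share of all genes. None of the 20 tested genes nearest to Clock in the reference gene order was called, 8 of the nearest 100 (8%) and 21 of the nearest 200, against 9.13% of all genes. The genes most like Dbp over the 12 arrays were Phf20 (Pearson r = 0.979), Per3 (0.979), Tspan4 (0.977), Lrp4 (0.971) and Brip1os (0.969), and the most opposed were Clpx (-0.976), Chpt1 (-0.964), Uqcc3 (-0.963), Clock (-0.961) and Niban3 (-0.959). These correlations are over 12 arrays that fall into 4 groups, so they follow the distances between the groups. Phf20, a chromatin reader, read 6.81, 6.96 and 7.12 in Clk/Clk and 7.80, 8.11 and 7.80 in treated wild type.

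Clk/Clk mice were also compared with the PPARα-null mice on the same drug. The difference between Clk/Clk and null mice was -4.59 (SE 0.500, adjusted p = 2.86e-05) for Dbp, -2.71 (SE 0.343, adjusted p = 9.17e-05) for Per2 and -4.68 (SE 0.286, adjusted p = 3.99e-07) for Usp2. In the cell cycle list 21 of 32 genes were lower in Clk/Clk than in null mice, where 7.78% of all genes were. In the interferon list 4 of 22 were lower and 1 higher. In amino acid catabolism 3 of 33 were higher and 5 lower, where 7.43% and 7.78% of all genes were. The null mice carried a part-129 background, so genotype and strain cannot be told apart in these values.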

How the data were processed

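Biotin-labelled RNA (250 ng of total RNA per liver) from 12 mice was hybridised to 1 oligonucleotide array each, and the authors deposited 1 table of log2 expression values for 45101 probe sets. These log2 values came from RMA per the submitters' processing notes, its version not given in the sources used here. RMA background-corrects, quantile-normalizes and summarises probes, so a total shift common to an array is removed and levels are not comparable between probe sets. Of 45037 probe sets other than array controls, 34945 had 1 gene symbol in the platform annotation, 932 several and 9160 none. Probe sets at or above the 40th percentile of the array on at least 3 arrays were kept (28344), and the probe set with the highest mean over all arrays stood for each of 13598 genes. Differences were fitted by the limma package (version 3.58.1, R version 4.3.3; linear model and moderated variance, 1 mean per group over all 12 arrays, 8 residual degrees of freedom), and p-values were adjusted over all genes by the Benjamini-Hochberg method. The adjusted p-values in the text are from this fit unless they are said to be over all probe sets. The number of arrays, 3 per group, limits the precision. The p-values measure only the spread between these mice, pooled within the 4 groups for each gene.

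Genes were named by rule: all tested clock genes, the 15 largest rises and falls among called genes whose groups did not overlap, and up to 4 called genes per list with the smallest adjusted p. Called genes among the 20 nearest Clock and the 5 genes most like Dbp in each direction were also named. Further members that complete a list, called or not, were named after their values were seen. The members and lists were chosen with earlier results of these data known. The fit was tested on simulated data. Alternatives were the 2 groups alone, a replicate block, other filters, other probe set choices, renormalization, centring, other variance settings, array weights, other fold limits and leaving out each mouse. Genes without a probe set of their own symbol were not analysed here. RefSeq promoter windows are those of GRCm38.p6. The same replicate numbers in Clk/Clk and treated wild type were not treated as pairs in the main fit. The closing section gives a check of them.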

Additional observations from a re-analysis of the deposited data

Results flagged for a closer look

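Signals outside the gene comparison also differed between Clk/Clk and wild-type mice on bezafibrate. Among the 9160 probe sets without a gene symbol, 118 were called higher in Clk/Clk mice and 181 lower, 3.26% together. The largest rise without overlap read 7.61, 7.95 and 7.66 in Clk/Clk mice and 4.52, 4.53 and 4.60 in treated wild type. The largest fall without overlap read 3.80, 3.6 and 3.72 in Clk/Clk mice and 7.46, 7.28 and 7.30 in treated wild type, and 3.46, 3.47 and 4.73 in untreated wild type.

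Among the 932 probe sets with several gene symbols, 28 were higher and 43 lower, 7.62% together. The largest rise without overlap was in a probe set shared by Gm4724, Gm14308, Gm2026 and Gm14434, with a difference of 2.94 (SE 0.107). The largest fall, in a probe set shared by the haemoglobin genes Hba-a2 and Hba-a1, read 10.13, 8.70 and 7.27 in Clk/Clk mice and 11.98, 12.34 and 11.15 in treated wild type, which did not overlap.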

How the results depend on the processing

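Across 18 alternatives the calls of the named genes kept their direction and side of the threshold in 2809 of 2977 cases, became weaker in 122, stronger in 21 and changed sign in 25. The number of calls moved by more than 1.5 times only with the fold limit. Without one, 3363 genes were called between Clk/Clk and treated wild type, 1440 higher and 1923 lower, and 6128, 5031 and 6649 in Clk/Clk against untreated wild type, Clk/Clk against PPARα-null and treated against untreated wild type. At 2-fold the counts were 464, 127, 337, 1142, 922 and 1242 in the same order. Leaving out 1 mouse gave 1074 to 1407 genes, 294 to 397 higher and 777 to 1024 lower. The other comparisons then gave 2600 to 2644, 2001 to 2074 and 2749 to 2923.

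With the replicate number as a block 1253 genes were called, of which 1229 were among the 1241. Same-numbered Clk/Clk and treated wild-type mice did not deviate together from their group means. The correlations over genes were 0.048, 0.035 and -0.092, so the numbers do not pair these mice. The other groups were not checked in this way.

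Of the called genes, Ighm changed sign, to 0.038 without suffixed probe sets. Arntl lost its call there, and Nfe2l2, Fgfr4, Tef, Cs, Ddit3, Onecut1 and Ighm lost theirs when all of a gene's kept probe sets were averaged. Fitting only the 2 groups ended the calls of Cd68, Cyp51, Ddit3, Errfi1, Gstm3, Nr1d2, Sgk1 and Stard4. Array weights ended that of Ecm1, renormalization those of Brip1os and Itih3, no filter that of Igfbp2, and the other variance settings those of Ddit3 and Igfbp2. The cause was not tested. The other sign changes were in genes not called. With the mean of probe sets Btrc was at 0.091, Cpt1a at 0.19, Csnk1d at 0.027 and Cys1 at -0.48, and without suffixed probe sets Btrc was at 0.16. On renormalization Gstt2 was at -0.025, Lpin1 at 0.014 and Vnn1 at -0.0075, on centring Lpin1 at 0.0023, and with array weights Gstt2 at -0.0088 and Lpin1 at 0.046. Leaving out 1 mouse at a time gave -0.13 to 0.032 in Cpt1a, -0.054 to 4e-04 in Csnk1d, -0.0046 to 1.34 in Cyp7a1, -0.0048 to 0.12 in Cys1, -0.099 to 0.17 in Gstt2, -0.22 to 0.17 in Lpin1, -0.039 to 0.33 in Per1 and -0.027 to 0.15 in Vnn1. Signal over background limits genes near the filter level, such as Mme and Cdc6 in Clk/Clk mice.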

Other observations

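Summed cholangiocyte markers read 875 to 1323 in Clk/Clk mice and 845 to 1034 in treated wild type, against 323 to 341 in PPARα-null mice and 286 to 299 in untreated wild type. A linear sum mostly follows its brightest members. Of the 5 tested markers 2 were called higher than in untreated wild type in Clk/Clk mice and 2 in treated wild type. Of all genes 10.6% and 12.8% were. The median differences of the list were 0.094 and 0.17. Summed sinusoidal endothelial markers read 6336 to 7043 in Clk/Clk mice, 5148 to 7059 in treated wild type and 8112 to 8751 in untreated wild type. Neither set of sums was tested.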
